A study of Homo sapiens with 3 samples.

Results

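The genes described here encode the subunits that set apart the variant Polycomb complexes PRC1.3, PRC1.5 and PRC1.6: *PCGF3*, *PCGF5*, *PCGF6*, *L3MBTL2*, *MGA*, *MAX*, *E2F6*, *TFDP1*, *AUTS2* and *FBRS*. They were taken by name, through every single guide RNA (sgRNA) whose label starts with 1 of these symbols and its Ensembl gene identifier. This gave 98 sgRNAs of 10 genes, among 200682 sgRNAs and 20381 genes in all. *E2F6* had 8 sgRNAs (numbers 3 and 9 were not listed in any library) and each of the other genes had 10.

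The data come from a pooled CRISPR/Cas9 knockout screen in K-562, an established human leukaemia cell line that displays little MHC class I (MHC-I) at its surface, and the readout was HLA-B, an MHC-I molecule. All 3 groups were K-562 cells carrying Cas9, infected with the genome-wide Bassik lentiviral sgRNA library at a multiplicity of 0.3 and selected with puromycin at 1 μg/mL for 72 h, beginning 48 h after infection. The HLA-B high sorted group was pulsed with interferon-gamma (IFN-γ) at 1 ng/mL for 24 h and sorted for antibody staining of HLA-B at days 18 and 25. The high-screen control was the unsorted pool of that screen, and the low-screen control was the unsorted pool of the converse screen, in which IFN-γ was used at 25 ng/mL and sorts were made at days 7 and 15. Each group was 1 library (n = 1), so no spread between replicates was measured. The title of the low-screen control names HLA-ABC and the name of its deposited table HLA-B, so the antibody of that screen is not settled, and the pool was assigned by its title. The labels give neither the harvest day of the unsorted pools nor whether they received IFN-γ, so the pools may differ in age as well as in screen. What was read is the sgRNA cassette in genomic DNA, so neither the cell type nor the loss of any protein could be checked in these libraries.

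PRC1 is the Polycomb complex that attaches ubiquitin to histone H2A through RING1 or RNF2, each of which pairs with a PCGF protein that decides which other subunits join. PRC1.3 and PRC1.5 are built on the close relatives PCGF3 and PCGF5, and contain AUTS2 or FBRS family proteins with casein kinase 2. PRC1.6 is built on PCGF6 and carries its own DNA-binding pairs, MGA with MAX and E2F6 with TFDP1, together with L3MBTL2, and it is known for silencing germline genes. MHC-I genes are held silent by Polycomb in K-562 cells, so an sgRNA that removes a needed repressor would leave more of its reads among HLA-B high cells than in the unsorted pool.

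Matched reads numbered 34266318 for the HLA-B high sorted group, 22562241 for the high-screen control and 98426251 for the low-screen control. Levels are given as read counts or as CPM, read counts scaled to the total of matched reads. Few sgRNAs came through the sort: 49.6% of all sgRNAs were listed in the sorted library, against 97.7% in the high-screen and 93.4% in the low-screen control. Reads were also spread more unevenly over all sgRNAs in the sorted library. Its Gini coefficient, a measure of unevenness, was 0.859, against 0.463 in the high-screen and 0.455 in the low-screen control. An unlisted sgRNA was given a count of 0, which allows up to 3 reads, or 0.0875 CPM in the sorted library, 0.133 CPM in the high-screen control and 0.0305 CPM in the low-screen control. The reads are PCR products without molecular identifiers, so every interval of a level or a ratio below is a 95% interval for counting error only. Intervals of shares of sgRNAs are 95% binomial intervals that treat sgRNAs as independent draws. Safe-targeting sgRNAs, which cut sites of no known function, served as the background. Non-targeting sgRNAs, which have no binding site in the genome, were a further control set.

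Whether loss of these subunits moved cells into the HLA-B high gate was asked first by setting the sort against its own unsorted pool. None of the 10 genes was enriched or depleted as a gene. Of their 98 sgRNAs, 44 were listed in the sorted library (44.9%, Clopper-Pearson interval 34.8 to 55.3%), where 49.2% of all gene-targeting and 50.4% of safe-targeting sgRNAs were listed. The difference was larger for sgRNAs with 10 or more sorted reads. These were 29 of the 98 (29.6%, interval 20.8 to 39.7%), against 40.9% of all gene-targeting and 42.7% of safe-targeting sgRNAs. Neither difference was tested, since the sgRNAs of a gene are no replicates. Summed over the 98 sgRNAs, the genes took 342 CPM in the sorted library, against 443 CPM in the high-screen control and 489 CPM in the low-screen control. The median sgRNA had 0 reads in the sorted library, against 75.5 reads in the high-screen control and 375.5 reads in the low-screen control. The sorted reads were held by few sgRNAs, since the 5 with the most reads took 65.3% of them, against 17.9% in the high-screen and 23.2% in the low-screen control.

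The log2 ratio of sorted over high-screen control, with libraries scaled to equal size and 1 read added, could be taken for the 90 sgRNAs with 10 or more reads in the high-screen control. Its median was -5.06, with an interquartile range of -6.60 to -1.92, against a median of -4.49 and a range of -6.50 to -0.55 over 6257 safe-targeting sgRNAs. Safe-targeting sgRNAs thus lay far below 0 too, and the median over the 10 genes was 0.57 below theirs. The 4325 non-targeting sgRNAs had a higher median, -2.20. The size of an offset from a control median therefore depends on the control set, and the offsets given below are from safe-targeting sgRNAs. A ratio above 1 was found for 10 of the 90 sgRNAs (11.1%, interval 5.46 to 19.5%), where 12.6% of all gene-targeting sgRNAs passed. A ratio below -1 was found for 68 (75.6%, interval 65.4 to 84.0%), where 70.8% of all gene-targeting sgRNAs passed. Of the 90, 47 had 0 sorted reads (52.2%), against 47.6% of safe-targeting sgRNAs. The ratio of an sgRNA with 0 sorted reads is set by the added read and its reads in the high-screen control alone. A gene median that falls on such sgRNAs thus reflects their starting reads and does not measure how far they were lost. The intervals of these shares treat the sgRNAs of a gene as independent draws, which they are not, so they were not read as a test against the background.

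Genes were scored by redundant siRNA activity (RSA), the ranking score used by the study, which asks whether the sgRNAs of a gene lie together at 1 end of the ranking of all sgRNAs. Calls needed an RSA p under 0.001 and 4 or more sgRNAs that were past a log2 ratio of 1 (below -1 for depletion) and stood at or beyond the rank that gave this p. By this rule 0 of the 10 genes were called in either direction, where 0.330% of 20314 genes were called enriched and 0.418% were called depleted. The p is one-sided, compares sgRNAs within these libraries and takes the best of several ranks, so it runs small. At an unadjusted RSA p under 0.05 stood 0 of the 10 genes for enrichment, against 22.4% of all genes, and 3 (*PCGF3*, *E2F6* and *L3MBTL2*) for depletion, against 22.7%. The lowest Benjamini-Hochberg adjusted RSA p among the 10 genes was 0.149 for depletion (*L3MBTL2*) and 0.242 for enrichment (*PCGF5*). From high to low, the gene medians ran *AUTS2*, *PCGF5*, *TFDP1*, *MAX*, *PCGF6*, *FBRS*, *MGA*, *PCGF3*, *E2F6* and *L3MBTL2*. In all 9 pairs of neighbours in this order the interquartile ranges over sgRNAs overlapped, and those of all 10 genes overlapped that of safe-targeting sgRNAs.

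**Figure D1:**
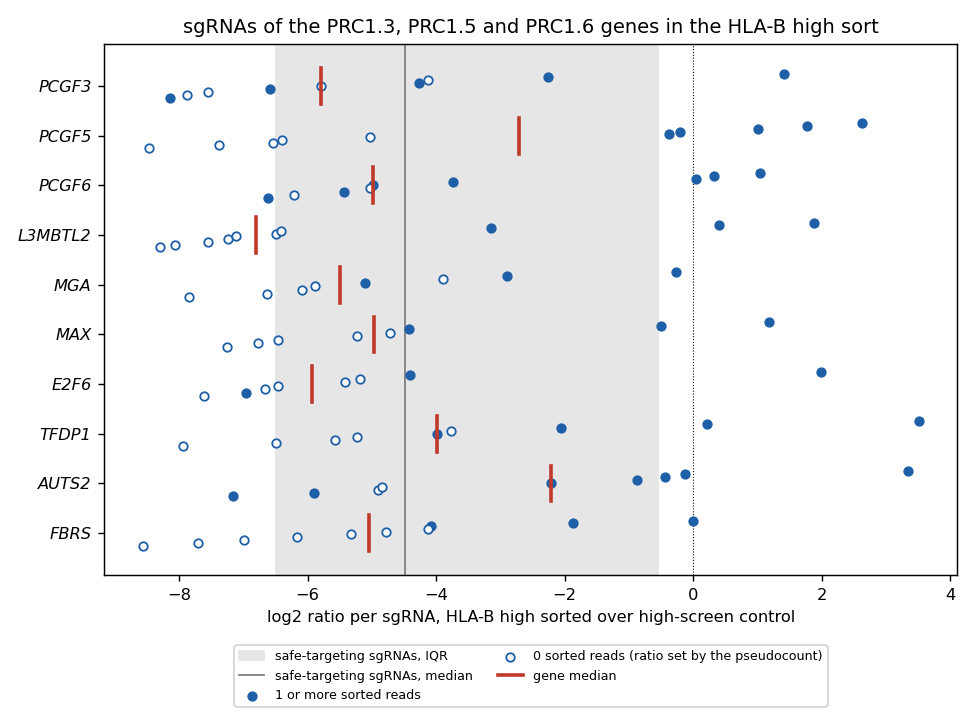
Each point is 1 sgRNA with 10 or more reads in the high-screen control, placed by its log2 ratio of HLA-B high sorted over high-screen control, with genes down the page. Open points had 0 sorted reads, red bars are gene medians, and the grey band and line are the interquartile range (IQR) and median of safe-targeting sgRNAs; *AUTS2* and *PCGF5* have the highest medians (-2.21 and -2.70) and *L3MBTL2* the lowest (-6.80).

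*PCGF3* (GRCh37 chromosome 4, 699537 to 763877, plus strand) and *PCGF5* (chromosome 10, 92922769 to 93044094, plus strand) encode the paralogous RING-finger proteins at the centre of PRC1.3 and PRC1.5. For *PCGF5*, 5 sgRNAs were well represented after the sort, with 1323 sorted reads against 140 in the high-screen control for sgRNA 3, 429 against 82 for sgRNA 8, 365 against 119 for sgRNA 2, 229 against 174 for sgRNA 5 and 214 against 184 for sgRNA 4. The other 5 *PCGF5* sgRNAs had 0 sorted reads, against 25 to 279 reads in the high-screen control. The gene thus fell into sgRNAs that stayed near or above their starting level and sgRNAs that were lost, and 3 of 10 stood above a log2 ratio of 1 while 5 stood below -1. It had the most sgRNAs above 1 of the 10 genes. Its median was -2.70, which is 1.78 above the safe-targeting median, and its RSA p for enrichment was 0.0700 (adjusted 0.242).

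*PCGF3* rested on a single sgRNA. Its sgRNA 2 had 1223 reads in the sorted library, against 301 in the high-screen control, a 2.68-fold higher share (exact interval 2.36 to 3.05). The other sgRNAs of the gene had 0 to 19 sorted reads, although sgRNA 3 had 410 reads and sgRNA 10 had 185 reads in the high-screen control. Of its 9 sgRNAs that could be compared 8 lay below -1, and the median was -5.79, with an RSA p for depletion of 0.0374 (adjusted 0.203). The summed level of *PCGF3* was 36.4 CPM in the sorted library and 59.5 CPM in the high-screen control, while that of *PCGF5* was 74.7 and 56.4 CPM in the same libraries. The difference between the paralogs was not tested, since the sgRNAs of a gene share 1 target in 1 library and are no replicates.

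*AUTS2* (chromosome 7, 69063282 to 70258492, plus strand) encodes a subunit that turns PRC1.3 and PRC1.5 towards gene activation in neural cells. It had the highest median of the 10 genes, -2.21, and the highest summed level, 105 CPM in the sorted library (interval 102 to 109) and 69.3 CPM in the high-screen control (65.9 to 72.8). Most of this came from sgRNA 3, with 2885 sorted reads against 187 in the high-screen control, a 10.2-fold higher share (8.76 to 11.8). A further 4 *AUTS2* sgRNAs kept 30 to 374 sorted reads, against 94 to 452 in the high-screen control, and the remaining 5 had 0 to 7. So 1 of 9 sgRNAs lay above 1 and 5 lay below -1, and the RSA p for enrichment was 0.116 (adjusted 0.285).

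*FBRS* (chromosome 16, 30669752 to 30682131, plus strand), which encodes fibrosin, the AUTS2-related subunit of the same complexes, was at the other end by its summed ratio but not by its median. Its summed level was 6.04 CPM in the sorted library (5.25 to 6.92) and 42.8 CPM in the high-screen control (40.2 to 45.6), a ratio of 0.141 (0.121 to 0.164) and the lowest of the 10 genes. Only sgRNA 5, with 143 sorted reads against 94, sgRNA 8, with 62 against 152, and sgRNA 2, with 2 against 35, were listed after the sort. None lay above 1 and 9 of 10 lay below -1. The median of *FBRS* was -5.05, which is 0.56 below the safe-targeting median, with an RSA p for depletion of 0.0800 (adjusted 0.249). The sgRNA with the most starting reads, sgRNA 10, had 0 in the sorted library against 299 in the high-screen control, which is at least 151-fold lower.

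*PCGF6* (chromosome 10, 105062553 to 105110901, minus strand) encodes the PCGF protein that defines PRC1.6. Its summed level was 25.2 CPM in the sorted library and 40.6 CPM in the high-screen control, a ratio of 0.619 (0.563 to 0.680). Its leading sgRNA held 42.2% of its sorted reads, the lowest such share of the 10 genes. SgRNA 7 had 364 sorted reads against 232, sgRNA 8 had 290 against 92 and sgRNA 6 had 190 against 100 in the high-screen control. The next, sgRNA 2, had 14 against 133, and the remaining 6 had 0 to 2 sorted reads. Only sgRNA 8 lay above 1, at 1.05, and the median was -4.98.

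*L3MBTL2* (chromosome 22, 41601286 to 41627275, plus strand), whose MBT-repeat protein binds chromatin as part of PRC1.6, had the lowest median of the 10 genes in the sort. That median, -6.80, was 2.32 below the safe-targeting median and ranked 19792 from the top among the medians of 20314 genes. It lay between sgRNA 4 (0 sorted reads against 71) and sgRNA 9 (0 against 109), so its size was set by their reads in the high-screen control. *FBRS*, also with 3 sgRNAs listed in the sorted library, had a median of -5.05, between unlisted sgRNAs with 31 and 21 reads in that control. Of the 10 *L3MBTL2* sgRNAs 7 had 0 sorted reads, against 67 to 248 reads in the high-screen control, so that each was at least 33.9-fold lower. The exception was sgRNA 1, with 1543 sorted reads against 275, a 3.69-fold higher share (3.25 to 4.22), and it held 93.6% of the gene's sorted reads. SgRNA 7 had 105 against 52 and sgRNA 8 had 1 against 12. The RSA p for depletion was 0.00615, the smallest of the 10 genes, ranking 839 of all genes with an adjusted value of 0.149, so *L3MBTL2* did not pass.

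*MGA* (chromosome 15, 41913332 to 42065279, plus strand) and *MAX* (chromosome 14, 65472892 to 65569413, minus strand) encode the pair that binds E-box DNA for PRC1.6, and MAX is also the partner of MYC. Both had low levels in the sort. *MGA* stood at 4.99 CPM in the sorted library (4.27 to 5.80) and 29.7 CPM in the high-screen control (27.4 to 32.0), with no sgRNA above 1 and 7 of 8 below -1. Its sgRNA 3 had 147 sorted reads against 117, and sgRNA 2 had 23 against 118. *MAX* stood at 7.62 CPM in the sorted library (6.72 to 8.60) and 31.7 CPM in the high-screen control (29.4 to 34.1), with 6 of 8 sgRNAs below -1. Its sgRNA 6 lay above 1, at 1.18, from 156 sorted reads against 45.

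*E2F6* (chromosome 2, 11584501 to 11606303, minus strand) and *TFDP1* (chromosome 13, 114239036 to 114295788, plus strand) encode the pair that recognises E2F sites. TFDP1 also serves the other E2F proteins that drive the cell cycle. *E2F6* was the extreme case of a gene carried by 1 sgRNA, since sgRNA 1 had 686 sorted reads against 113 in the high-screen control, a log2 ratio of 1.99, and the other 7 had 0 or 1 read, against 28 to 180. The median of *E2F6* was -5.93, with an RSA p for depletion of 0.0411 (adjusted 0.208). For *TFDP1*, sgRNA 7 had 324 sorted reads against 18, an 11.9-fold higher share (7.38 to 20.3), the highest ratio among the sgRNAs of the 10 genes. SgRNA 1 had 115 against 65, sgRNA 3 had 25 against 71 and sgRNA 5 had 3 against 43, and the other 6 *TFDP1* sgRNAs had 0 sorted reads. Its median was -3.98, and 7 of 9 sgRNAs lay below -1.

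**Figure D2:**
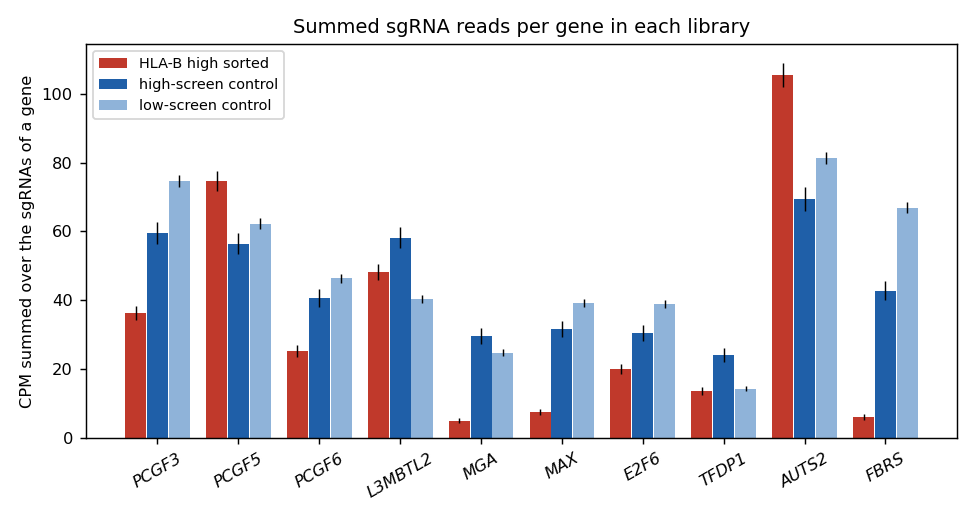
Bars give the reads of all sgRNAs of a gene summed, in CPM, in the HLA-B high sorted library, the high-screen control and the low-screen control (n = 1 library each), with exact Poisson 95% intervals for counting error. The sorted bar stands above the high-screen control bar for *PCGF5* (74.7 and 56.4 CPM) and *AUTS2* (105 and 69.3 CPM) only.

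By the summed reads, 2 genes were above the high-screen control with intervals that exclude 1, *PCGF5* at 1.32-fold (1.24 to 1.42) and *AUTS2* at 1.52-fold (1.43 to 1.62), and 8 were below it. Much of each sum came from a single sgRNA. The sgRNA with the most reads held 42.2% (*PCGF6*) to 99.7% (*E2F6*) of a gene's sorted reads, against 20.9 to 35.9% in the high-screen and 19.2 to 41.9% in the low-screen control. Such shares were not computed over all genes, and reads were unevenly spread over all sgRNAs of the sorted library. The concentration is therefore not read as a trait of these genes. When the leading sgRNA of each gene was left out, the ratio of sorted over high-screen control was below 1 for all 10 genes, from 0.00229 for *E2F6* to 0.719 for *PCGF5*. The sgRNA was picked by its sorted reads, so leaving it out tends to lower the ratio of any gene. The share of all genes that fall below 1 in this way was not computed. *AUTS2* then stood at 0.349. No other sgRNA of *E2F6* had more than 1 read in the sorted library.

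**Figure D3:**
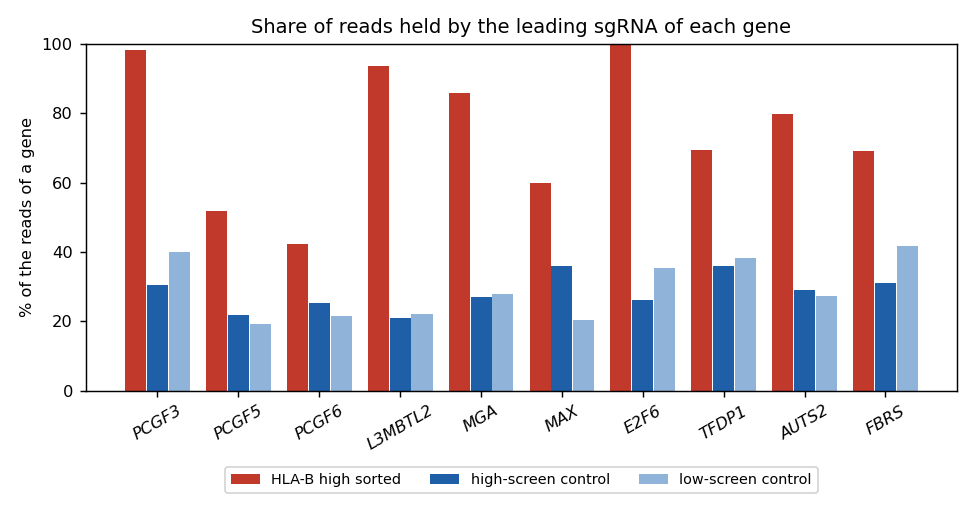
Bars give the percentage of a gene's reads held by its top sgRNA, for the HLA-B high sorted library, the high-screen control and the low-screen control. The sorted library lies above both pools for every gene, from 42.2% for *PCGF6* to 99.7% for *E2F6*.

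Set against the low-screen control, which shares the sorted library with the comparison above, the sort again gave no called gene among the 10. Of 83 sgRNAs with 10 or more reads in that pool, 10 lay above a log2 ratio of 1 (interval 5.93 to 21.0%), where 13.2% of all gene-targeting sgRNAs passed, and 64 lay below -1 (77.1%), where 71.5% passed. The median was -6.77, against -5.67 for safe-targeting and -2.11 for non-targeting sgRNAs. In all, 0 of 10 genes were called, where 0.424% of genes were called enriched and 0.576% depleted. At an unadjusted RSA p under 0.05 stood 0 of the 10 genes for enrichment, against 22.4% of all genes, and 4 (*FBRS*, *L3MBTL2*, *PCGF3* and *PCGF5*) for depletion, against 22.8%.

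Of the 80 sgRNAs that could be compared with both pools, 9 lay above 1 in both, and they came from 7 genes. The 2 ratios share the sorted library, and the share of all gene-targeting sgRNAs above 1 in both was not computed. The count is therefore not read as a trait of these genes. The 9 were sgRNAs 2, 3 and 8 of *PCGF5*, sgRNA 3 of *AUTS2*, sgRNA 1 of *E2F6*, sgRNA 1 of *L3MBTL2*, sgRNA 2 of *PCGF3*, sgRNA 8 of *PCGF6* and sgRNA 7 of *TFDP1*. *PCGF5* alone of the 10 genes gave more than 1. *MAX* sgRNA 6 lay at 1.18 against the high-screen control and at -0.52 against the low-screen control, where it had 643 reads. *MGA* and *FBRS* had no sgRNA above 1 in either comparison. By summed reads against the low-screen control, *L3MBTL2* was at 1.19-fold (1.12 to 1.26), above 1, whereas against the high-screen control it was at 0.827 (0.769 to 0.890), so its direction by that measure depends on the pool.

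The unsorted pools were then set against each other to see how these genes fared without a sort. The ratio of high-screen over low-screen control was near that of the background, with a median of -0.22 over 83 sgRNAs, against -0.23 for safe-targeting sgRNAs. Of these, 15 lay above 1 (18.1%), where 17.9% of all gene-targeting sgRNAs passed, and 18 lay below -1 (21.7%), where 25.2% passed. None of the 10 genes was called, where 0.365% of 20295 genes were called enriched and 0.710% depleted. At an unadjusted RSA p under 0.05 stood 2 genes (*L3MBTL2* and *TFDP1*) for enrichment, against 22.9% of all genes, and 2 (*MAX* and *PCGF3*) for depletion, against 23.0%. The interquartile ranges again overlapped in all 9 pairs of neighbouring genes and, for all 10 genes, with that of safe-targeting sgRNAs.

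*L3MBTL2* had the highest median of the 10 genes between the pools, 0.97, which ranked 438 from the top among the medians of 20295 genes. The high-screen control is the numerator here and the denominator of the sort ratio in which *L3MBTL2* was lowest. Its reads in that library thus move the ratios in opposite directions. In the sort over the low-screen control its median was -7.59, above those of *PCGF3* (-7.60) and *MAX* (-7.97). Between the pools, 5 of the 10 *L3MBTL2* sgRNAs lay above 1 and 1 lay below -1. SgRNA 1 had 275 reads in the high-screen control against 375 in the deeper low-screen control (log2 ratio 1.67), sgRNA 7 had 52 against 79, sgRNA 6 had 67 against 122 (1.25), sgRNA 3 had 212 against 453 (1.03) and sgRNA 9 had 109 against 236 (1.01). SgRNA 8 ran the other way, with 12 against 880 (-4.03). Summed, *L3MBTL2* was at 58.2 CPM in the high-screen control and 40.4 CPM in the low-screen control, a ratio of 1.44 (1.35 to 1.53). Its RSA p for enrichment was 0.00187 (adjusted 0.123), which did not pass.

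*TFDP1* gave opposite answers by its median and its sum. Over the 6 sgRNAs with 10 or more reads in the low-screen control the median was -1.05, the lowest of the 10 genes, whereas the summed level was 24.1 CPM in the high-screen control and 14.3 CPM in the low-screen control, a ratio of 1.68 (1.52 to 1.86) and the highest. In all, 3 *TFDP1* sgRNAs were not listed in the low-screen control, although they had 71 (sgRNA 3), 65 (sgRNA 1) and 10 reads (sgRNA 9) in the high-screen control, and were at least 103-fold, 94.5-fold and 14.5-fold higher there. SgRNA 5 had 43 reads in the high-screen control against 3, and sgRNA 2 had 195 against 96. With sgRNAs that had 10 or more reads in either pool, a choice made after the values were seen, the median over 10 sgRNAs was 1.65. SgRNAs 1, 3, 5 and 9 then entered only through their reads in the high-screen control, so the sign of the *TFDP1* median is set by which sgRNAs are admitted and no direction is given for the gene.

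Across 6 of these genes, 9 sgRNAs had 10 or more reads in the high-screen control and were not listed in the low-screen control (10.0% of 90, interval 4.68 to 18.1%), where 5.52% of all gene-targeting and 4.67% of safe-targeting sgRNAs were missing in this way. Besides those of *TFDP1*, they were sgRNAs 2 and 4 of *FBRS*, sgRNA 10 of *AUTS2*, sgRNA 4 of *MAX*, sgRNA 6 of *MGA* and sgRNA 7 of *PCGF3*. In the sorted library *TFDP1* sgRNA 1 had 115 reads and sgRNA 3 had 25. The reverse case was sgRNA 1 of *PCGF3*, with 0 reads in the high-screen control against 144 in the low-screen control. Among the other genes, summed levels in the high-screen control were above those in the low-screen control for *MGA* (29.7 and 24.9 CPM) and below for the remaining 7, with the ratio of *FBRS* lowest at 0.640 (0.597 to 0.684).

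**Figure D4:**
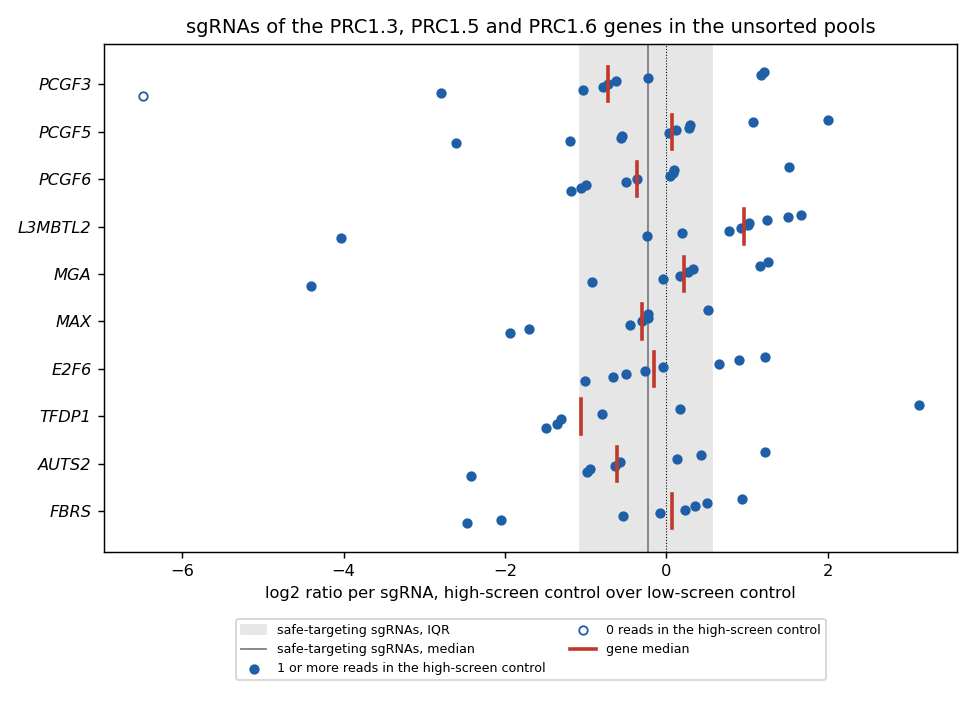
Each point is 1 sgRNA with 10 or more reads in the low-screen control, placed by its log2 ratio of high-screen over low-screen control. Red bars are gene medians and the grey band and line are the interquartile range and median of safe-targeting sgRNAs; *L3MBTL2* has the highest median (0.97) and *TFDP1* the lowest (-1.05), over the 6 of its sgRNAs that reached 10 reads in the low-screen control.

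Of the 3 other PCGF paralogs 1 was called in the sort. Of all genes, 0.330% were called enriched against the high-screen and 0.424% against the low-screen control. *PCGF1*, which defines PRC1.1, was called enriched against both pools, at 1019 CPM in the sorted library, 58.7 CPM in the high-screen control and 75.2 CPM in the low-screen control. All 10 *PCGF1* sgRNAs had more than 100 sorted reads, from 150 (sgRNA 7) to 14606 (sgRNA 10), and 9 of 10 lay above 1, with a median of 2.99. The highest single sgRNA of *PCGF3*, *PCGF5* or *PCGF6* lay at 2.63, below that median. *PCGF2* and *BMI1*, of the canonical PRC1 complexes, had medians of -5.11 and -4.56 with 2 sgRNAs above 1 each. By summed reads *BMI1* was at 130 CPM in the sorted library and 22.4 CPM in the high-screen control, a ratio of 5.80 (5.29 to 6.38). *PCGF2* was at 1.24 (1.16 to 1.33), against 1.32 for *PCGF5*, 0.611 for *PCGF3* and 0.619 for *PCGF6*. *BMI1* sgRNA 10, with 2008 sorted reads against 5, was under the minimum count and did not enter the *BMI1* median. It did enter the sum, where it held 45.1% of the sorted reads of *BMI1*.

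**Figure D5:**
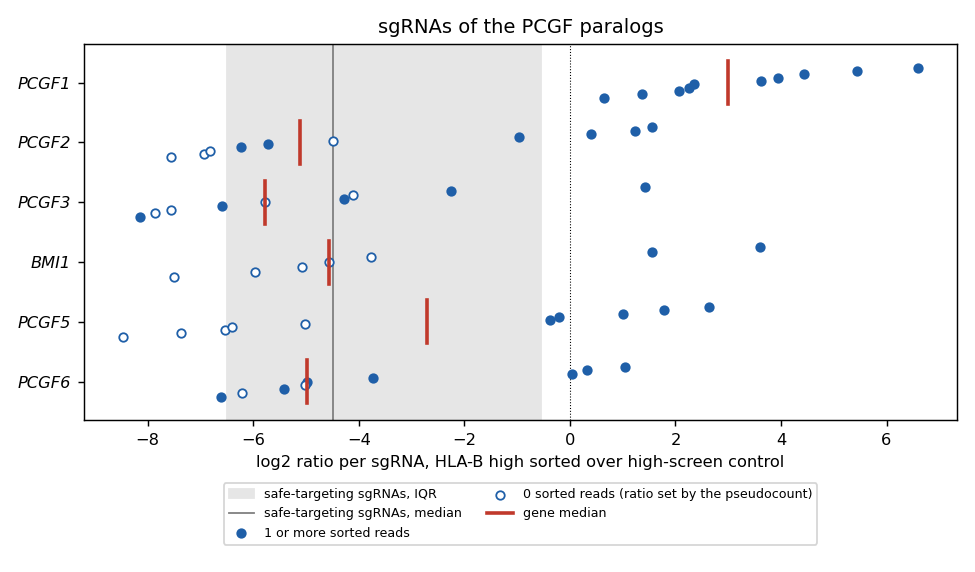
Each point is 1 sgRNA of a PCGF gene, placed by its log2 ratio of HLA-B high sorted over high-screen control, with open points for 0 sorted reads, red bars for gene medians and grey for safe-targeting sgRNAs. *PCGF1* has 9 of 10 sgRNAs above 1, *PCGF5* 3 of 10, and *PCGF3* and *PCGF6* 1 of 9 each.

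The partners of these subunits gave 0 called genes of 16 in the sort in either direction, and their gene medians ran from -6.03 (*CSNK2B*, the regulatory subunit of casein kinase 2) to -0.82 (*HDAC2*, a histone deacetylase of PRC1.6). The next were *RYBP*, a subunit shared by variant PRC1 complexes, at -5.40, and *EHMT1*, a histone H3K9 methyltransferase, at -1.11. Of their 135 sgRNAs 22 lay above 1 (16.3%, against 12.6% of all gene-targeting sgRNAs) and 90 below -1 (66.7%, against 70.8%). Of all genes, 0.330% were called enriched and 0.418% depleted in this comparison. Between the pools 1 of the 16, the casein kinase 2 catalytic subunit *CSNK2A2*, was called depleted, at 21.1 CPM in the high-screen control and 59.2 CPM in the low-screen control, with 6 of 9 sgRNAs below -1 and a median of -1.95 (RSA p 0.000655, adjusted 0.0810), where 0.710% of all genes were called depleted.

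Among 11 genes of the MYC and MAX network 0 were called in any comparison, where 0.330 to 0.710% of all genes were called by comparison and direction. Their medians in the sort ran from -6.11 (*MYCN*) and -5.49 (*MLXIP*) to -0.12 (*MXI1*, a MAX partner that opposes MYC) and 0.18 (*MYCL*). In the E2F and RB family 1 of 11 entries was called depleted in the sort over the high-screen control, where 0.418% of all genes were. This was *RB1*, the retinoblastoma protein that restrains E2F factors, at 0.146 CPM in the sorted library and 59.4 CPM in the high-screen control. All 9 of its sgRNAs lay below -1, with a median of -6.58 (RSA p 0.000191, adjusted 0.127). Against the low-screen control *RB1* had a similar ratio of summed reads, 0.00309 (0.00246 against the high-screen control), with all 9 sgRNAs below -1 and a median of -8.36, but its RSA p of 0.00303 did not meet the call. The other medians in this family ran from -5.77 (*E2F8*) to -1.26 (*RBL2*) and -0.90 (1 set of *RBL1* sgRNAs). *RBL1* is listed under 2 Ensembl identifiers, and its other set had a median of -4.81, so the sets disagree.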

How the data were processed

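The authors deposited raw read counts per sgRNA, without normalization. The methods describe trimming with fastx clipper or cutadapt, mapping of reads to the sgRNA sequences by Bowtie2 and removal of reads that aligned to several. According to the submitters' processing notes, bcl2fastq, cutadapt and Bowtie2 were used, with versions not given in the sources used here. Mapping was to sgRNAs, not to a genome build. Reads that matched no sgRNA were left out (21.9% of the HLA-B high sorted library, 20.6% of the high-screen and 12.1% of the low-screen control).

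The 2 libraries of a ratio were scaled to the mean of their totals, with a pseudocount of 1 and a minimum count of 10 in the denominator. RSA ran over all sgRNAs, and p-values were adjusted over all genes (Benjamini-Hochberg). The score was also run on simulated counts in which all sgRNAs of a changed gene moved alike. The real sort differs, with many unlisted sgRNAs and single leading sgRNAs, so that run does not show how the score performs on these data. The software was scipy 1.17.1, pandas 2.3.3, numpy 2.4.6 and matplotlib 3.10.9 under Python 3.11.15. Gene positions are from GENCODE release 44 lifted to GRCh37. All 10 genes are named. Of each related list, genes called in any comparison and those with the 2 highest and 2 lowest medians in the sort, given 4 or more sgRNAs, are named. The genes and lists were chosen with earlier results of these data known. Alternatives tried were other minimum counts, another pseudocount, scaling, centring, other call rules and summed pools. The sgRNA sequences were not used here.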

Additional observations from a re-analysis of the deposited data

How the results depend on the processing

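For sorted over high-screen control, the median over the sgRNAs of the 10 genes was -5.06, and was -6.21 at a minimum count of 50, -3.10 at a pseudocount of 5 and -0.57 when centred on the safe-targeting median. The count above 1 was 28 when centred, and the count below -1 was 43 at a minimum of 50 and 38 when centred. Over the low-screen control the median was -4.80 at a pseudocount of 5 and -1.10 when centred, with 28 above 1 and 42 below -1 when centred. Between the unsorted pools, 28 sgRNAs lay above 1 with no minimum count and 25 with 10 or more reads in either pool (added after the values were seen). In both, 1 of the 10 genes, *TFDP1*, met the call rule (RSA p 0.000355 and 0.000193), but both settings admit *TFDP1* sgRNAs only through their reads in the high-screen control, so nothing is read from it. Under every other alternative run 0 were called in any comparison. Centring moved the median of all gene-targeting sgRNAs by 4.49 in the sort, so counts past a threshold depend on the zero point.

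Over all genes, calls in the sort over the high-screen control numbered 67 enriched and 85 depleted. Centring gave 108 enriched, counting sgRNAs past the threshold at any rank gave 144 depleted, and dropping every gene's most extreme sgRNA gave 22 and 15. Over the low-screen control, 86 and 117 became 22 and 39 without that sgRNA, and 131 were enriched when centred. Between the pools, 74 and 144 became 18 and 30 without it, and 212 (no minimum) or 158 (either pool) were enriched. Leaving out a replicate was not possible with 1 library a group. No paired analysis was possible because each group has 1 library. The 54 sgRNAs with no sorted read had none although the sorted library held more matched reads than the high-screen control. For these sgRNAs, loss of cells in sorting and an effect of the gene cannot be told apart.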
